A study of Homo sapiens with 39 samples.

Results

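Keratins are the intermediate filament proteins of epithelial cells, and 10 of their genes were followed here by symbol in every count table and by gene name in every cluster list: KRT5, KRT6A, KRT7, KRT8, KRT14, KRT15, KRT16, KRT17, KRT18 and KRT19. All 10 were present among the 21530 symbols of the polysome table and the 26334 symbols of the RNA immunoprecipitation (RIP) tables. The libraries came from human bronchial epithelial cells (HBEC), a cultured airway line grown in keratinocyte medium, in 3 versions named after the splicing factor U2AF1: wild type (WT), the S34F mutation, and Frame Shift (FS), whose allele the labels do not describe. Each HBEC line gave 1 polysome gradient of 8 fractions (monosomes, 2, 3, 4, 5, 6 and 7 ribosomes, and 8 to 10 ribosomes pooled), which makes 24 libraries. Each line also gave 3 RIP libraries, 1 each of precipitate (IP), control immunoglobulin precipitate (IgG) and Cytosol, which makes 9 libraries; the antibody of the IP is not given in the sources used here. Flp-In-293 cells, a kidney-derived HEK 293 line carrying FLAG-HA tagged U2AF1, were used for PAR-CLIP, in which T-to-C conversions show where a protein touched RNA. Its lists cover the cytoplasm with WT or S34F protein and chromatin with the WT protein. Replicates A and B were pooled in each of these 3 cluster lists. The labels do not say whether the HBEC lines are single clones.

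A keratin filament is built from pairs of 1 type I and 1 type II chain, so the genes work in partners. KRT5 (type II) with KRT14 or KRT15 (type I) marks basal cells of stratified and airway epithelium, KRT6A with KRT16 or KRT17 is induced in wounded and proliferating epithelium, and KRT8 or KRT7 with KRT18 or KRT19 belongs to simple and luminal epithelium. The type II genes and KRT18 lie together on chromosome 12, and the other type I genes lie together on chromosome 17. Several have near-identical copies: KRT6B and KRT6C beside KRT6A, and processed or duplicated pseudogenes of KRT8, KRT14, KRT16, KRT17, KRT18 and KRT19.

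Of the 10 genes, KRT18 alone carried a PAR-CLIP cluster in any of the 3 lists, and its sequence is shown because it is the single cluster found on the 10 genes. The cluster lay in the WT chromatin list at chr12:53345506-53345526 on the plus strand, in a region the list annotates as intron-coding, in the coordinates of the deposited list, whose genome build is not stated. The CAG triplet is in capitals, because a U2AF1 contact at a 3′ splice site is centred on an AG dinucleotide.
KRT18 cluster, chromatin WT: atcctgCAGattgaggagagc
It held 57 reads, more than 78.2% of the clusters of that list, with conversions at 2 positions and a T-to-C fraction of 0.8 as the list gives it. Among the 470 intron-coding clusters of this list that are also 21 bases long, 57.9% held a CAG on the transcribed strand, against 41.2% of all 5454 clusters of this length, so the triplet is common in such clusters. The cytoplasm lists held 0 clusters on the 10 genes, and the chromatin list held 1. Over all genes, the S34F cytoplasm list had 28828 clusters and named 6918 genes. The WT cytoplasm list had 26613 clusters and named 7569 genes, and the chromatin list had 92895 and named 9481. Keratin mRNA levels in Flp-In-293 cells were not measured here. KRT10, a suprabasal type I keratin outside the 10, had a cluster in its 3′ UTR in the S34F cytoplasm list (30 reads) and another in the chromatin list (23 reads).

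The HBEC libraries carried markers of basal airway cells, and of the simple or luminal list only its keratins. Of 12 listed basal markers, 11 had a median of at least 10 CPM (the library's counts scaled to the usual fixed total) in the polysome libraries and 10 in the RIP libraries, but KRT5, KRT14, KRT15 and KRT17 are themselves on that list. Of 6 simple or luminal markers 4 reached it in both tables, all of them keratins described here (KRT7, KRT8, KRT18 and KRT19). EPCAM and CLDN4, the rest of that list, did not, and both had a median under 1 CPM in RIP. Of 12 squamous markers 1 reached that level (KRT10), and of the secretory, ciliated, fibroblast and endothelial markers none did. Among 5 leukocyte markers CD68 and LYZ reached it in polysomes. Library totals ran from 2440145 to 13367574 counts in the gradients and from 2582141 to 29769968 in RIP, so that 3 counts, the most that a count of 0 allows, correspond to 0.224 to 1.23 CPM and 0.101 to 1.16 CPM. The 10 keratins took 0.433% to 1.32% of the counts of a polysome library and 1.47% to 5.31% of a RIP library. The 3 lines are the only replicates, 1 library per line and fraction or kind. Each line's own level was taken out as a block before testing. The p-values and standard errors set each difference against the spread left after fraction or kind and line are fitted. That spread is taken over all libraries of a table and is drawn partly from other genes. It is not the spread of the compared difference over these 3 lines alone, in which genotype is a part.

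The zeros need to be known before any fold change. In the polysome libraries KRT5, KRT7, KRT8, KRT14, KRT15, KRT17, KRT18 and KRT19 had at least 3 counts in all 24 libraries. KRT6A fell under 3 counts in FS monosomes and in the S34F fraction of 6 ribosomes, although its highest library held 2068 CPM. KRT6C was under 3 counts in both of these libraries too, and in 7 of 24 in all. KRT16 was listed at 0 in 6 of 24 libraries: WT monosomes, FS 3 ribosomes, and S34F 4, 5, 7 and 8-10 ribosomes. Between these zeros KRT16 stood at 21.5 to 126 CPM. Such isolated zeros, meaning a gene at 0 in some library that elsewhere reaches 50 CPM, affected 117 of the 7535 genes that reach 50 CPM in the gradients and 77 of 5182 in RIP.

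The same genes behaved differently in the RIP tables. KRT14 was under 3 counts in 7 of 9 RIP libraries and reached at most 29.3 CPM, while every polysome library of the same lines held 137 to 1214 CPM. KRT16 was under 3 counts in 9 of 9 RIP libraries. Its pseudogenes differed: KRT16P1 stood at 19.9 to 223 CPM in RIP (median 133) and at 0.0929 to 38.2 CPM in polysomes (median 12.5). KRT16P2 was listed at 0 in all 9 RIP libraries and stood at 4.30 to 49.0 CPM in polysomes, and KRT16P3 was listed at 0 in 4 of 9 RIP libraries and reached 351 CPM in another. KRT15 was listed at 0 in S34F and FS Cytosol, the 2 libraries with the largest totals, and KRT19 was listed at 0 in all 3 Cytosol libraries. Reads that match several near copies can be assigned to any of them, and the counting tool is not given in the sources used here. Whether that, or a difference in RNA, made these zeros was not tested.

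Sums over genes were compared too, leaving out KRT18, the type I gene of chromosome 12. The summed CPM of the 5 chromosome 17 keratins (KRT14, KRT15, KRT16, KRT17 and KRT19) divided by that of KRT5, KRT6A, KRT7 and KRT8 was 0.383 to 0.997 in the 24 polysome libraries, with a median of 0.571. In the RIP Cytosol libraries the ratio was 0.0568 in WT, 0.00150 in S34F and 0.0154 in FS. It was 0.0929, 0.207 and 0.144 in IP, and 0.183, 0.579 and 0.247 in IgG, for WT, S34F and FS. The ratio in S34F IgG thus lay within the polysome range and the other 8 RIP libraries lay below it. In S34F IgG the chromosome 17 sum was almost all KRT17, at 19141 of 19223 CPM. The partner pair on chromosome 12 had the same median ratio in both tables: KRT18 over KRT8, as CPM per kilobase of transcript, stood at 2.29 in the 9 RIP libraries (1.504 to 4.21) and at 2.29 in the 24 polysome libraries (1.70 to 2.94). KRT14 over KRT5 had a median of 0.301 in polysomes (0.120 to 0.832) and at most 0.00397 in RIP. KRT8 and KRT18 have overlapping gene intervals on opposite strands (12:53290970-53343650 and 12:53342654-53346685 in the RIP tables, build not stated), and reads in the overlap cannot be told apart where strand was not used.

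**Figure D1:**
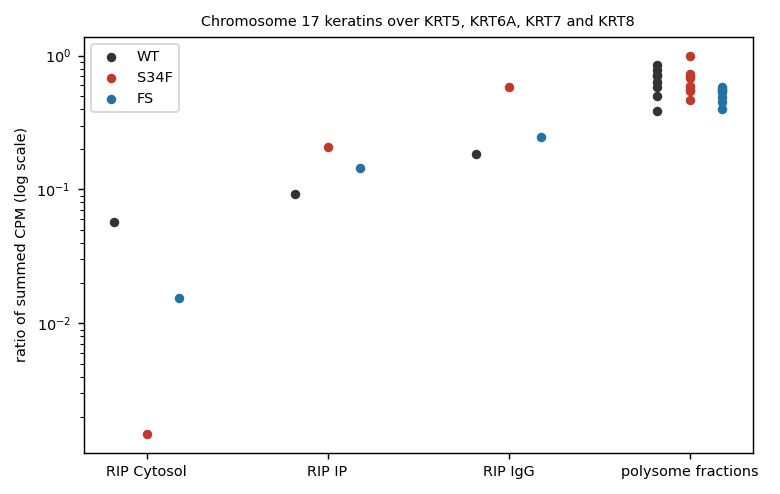
Ratio of the summed CPM of KRT14, KRT15, KRT16, KRT17 and KRT19 to that of KRT5, KRT6A, KRT7 and KRT8 (log axis) in each library. Each point is 1 library and colours are the lines. Polysome fractions sit between 0.383 and 0.997, and the Cytosol libraries between 0.00150 and 0.0568.

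In the gradients the basal keratin KRT5 had the highest mean of the 10 per kilobase in S34F and FS, and in WT it was level with KRT17. The mean over the 8 fractions was 591 CPM per kb in WT, 1755 in S34F and 1271 in FS. In WT it was followed by KRT17 (591), KRT19 (535), KRT7 (500), KRT6A (492), KRT14 (331) and KRT18 (302), and the ranges over fractions of each neighbouring pair in this order overlapped. KRT8 (117), KRT16 (26.2) and KRT15 (10.97) closed the order, with KRT18 and KRT8, and KRT8 and KRT16, without overlap. In S34F the order was KRT5, KRT19 (1201), KRT17 (797), KRT6A (526), KRT14 (481), KRT7 (436), KRT18 (212), KRT8 (105), KRT15 (38.7) and KRT16 (26.6). There, KRT19 and KRT17, KRT7 and KRT18, KRT18 and KRT8, and KRT8 and KRT15 did not overlap. In FS the order was KRT5, KRT19 (655), KRT17 (438), KRT6A (339), KRT7 (332), KRT14 (322), KRT18 (217), KRT8 (100.4), KRT15 (29.2) and KRT16 (23.0), and KRT8 and KRT15 were the single neighbouring pair without overlap. Fractions of 1 gradient are not replicates, so these orders have no test.

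**Figure D2:**
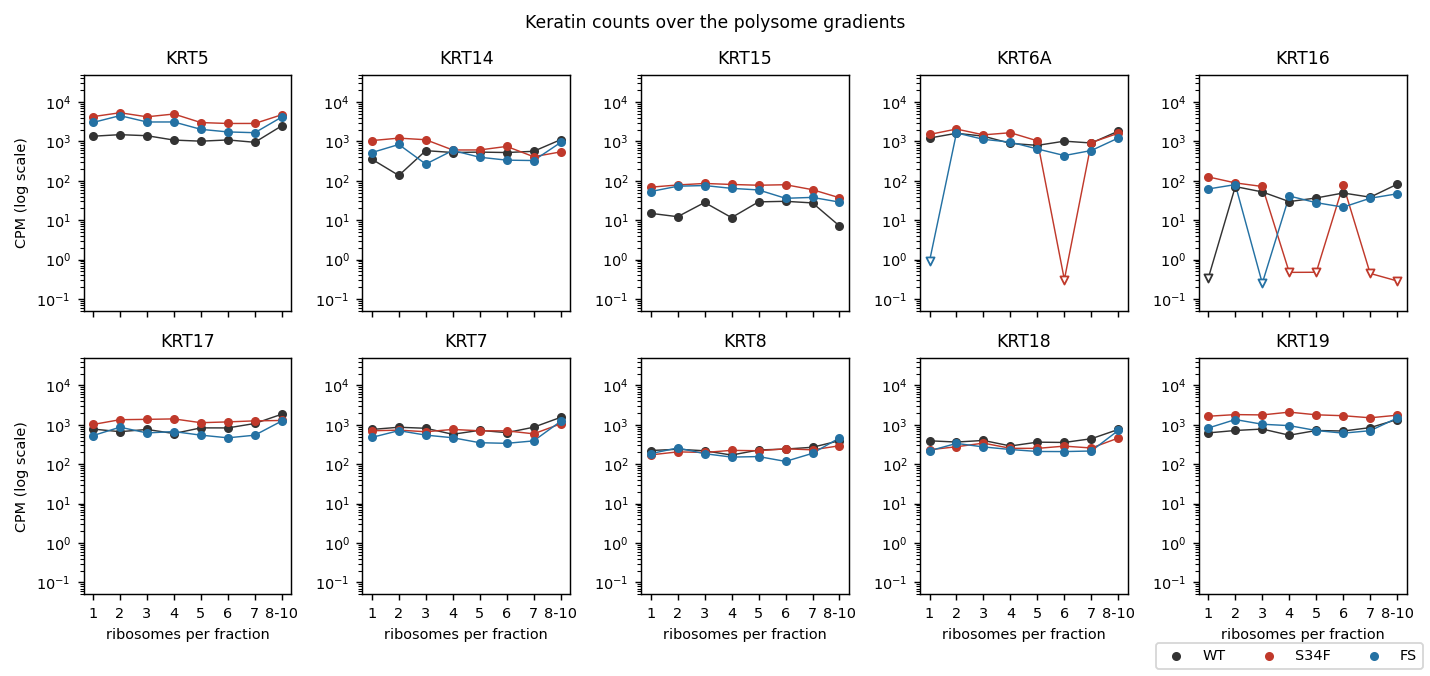
CPM (log axis) of the 10 keratins in the 8 fractions of each gradient, 1 panel per gene, with 1 line of points per HBEC line. Open triangles are libraries under 3 counts, drawn at the CPM of 3 counts. KRT5, KRT15 and KRT19 of S34F lie above WT in every fraction. KRT6A drops in 2 libraries, and KRT16 in 6, of which 4 are of S34F.

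Levels between lines were compared without a test, since each line has 1 library per fraction. KRT5 ran from 952 to 2499 CPM in WT (median 1225), from 1668 to 4525 in FS (median 3076) and from 2861 to 5358 in S34F (median 4247). All 8 S34F fractions were above all 8 WT fractions, and FS overlapped both. The mean level was 2.97 times that of WT in S34F and 2.15 times in FS. KRT15, the other basal type I chain, ran from 7.17 to 30.2 CPM in WT, from 28.9 to 76.0 in FS and from 37.2 to 85.8 in S34F, and its S34F range also lay clear of WT. KRT19, a type I chain of simple epithelium, ran from 546 to 1363 CPM in WT, from 616 to 1486 in FS and from 1510.3 to 2102 in S34F, so that S34F lay above both other lines.

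Thus 3 of 10 keratins had S34F and WT ranges without overlap, beside 1.08% of the 9501 genes whose gradients each summed to 500 counts or more. Between S34F and FS it was 1 of 10 (KRT19), beside 0.421%, and between FS and WT 0 of 10, beside 4.85%. The other members were within each other's ranges between S34F and WT: their mean levels in S34F were 0.701 times (KRT18) to 1.45 times (KRT14) those of WT. KRT5 was highest in S34F in RIP as well, in Cytosol with 8135 CPM in WT, 18342 in S34F and 10377 in FS. KRT15 was highest in S34F in IgG and IP but listed at 0 in S34F and FS Cytosol, and KRT19 was highest in S34F in IP and lowest there in IgG. With 1 line per genotype, the genotype and the line cannot be told apart, and neither can fewer cells of a type and less RNA per cell.

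Ribosome loading was compared between fractions by edgeR's quasi-likelihood test with line as a block, over 15945 genes with Benjamini-Hochberg adjustment, and all 10 keratins passed its filter on low counts. CPM gives each fraction the same total, so a fold change is relative to the other mRNAs of a fraction. The 3 comparisons share fractions and are given side by side. The simple-epithelium keratins KRT7, KRT8, KRT18 and KRT19, and KRT17, were higher in the heaviest fraction than in monosomes. KRT5 was lower at 6 and 7 than at 2 and 3 ribosomes, and its 8-10 fraction, which was not compared with 2 and 3, was above its fractions of 6 and 7 in each line. Differences between keratins were not tested.

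In 8-10 ribosomes against monosomes 5 of 10 keratins were higher and 0 were lower, beside 28.3% higher and 21.6% lower among all genes tested. The median log2 fold change was 1.04 over the 10 and 0.075 over all genes. KRT18, the type I partner of KRT8, had monosome levels of 393 CPM in WT, 233 in S34F and 219 in FS, and stood at 764, 463 and 722 CPM in 8-10 ribosomes. The 2 groups did not overlap, and the log2 fold change was 1.41 ± 0.34 (SE, n = 3 lines, adjusted p = 0.00164). KRT8 held 223, 172 and 185 CPM in monosomes and 396, 294 and 465 in 8-10 ribosomes, again without overlap (1.17 ± 0.35, adjusted p = 0.00850).

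KRT7, a type II chain of glandular and luminal cells, held 763, 706 and 480 CPM in monosomes against 1549, 1059 and 1227 in 8-10 ribosomes. The groups did not overlap (1.18 ± 0.36, adjusted p = 0.00864). KRT17, a type I chain of basal and activated epithelium, held 781, 1021 and 533 CPM against 1863, 1291 and 1254, with all heavy values above all light ones (1.19 ± 0.39, adjusted p = 0.0141). KRT19 held 625, 1654 and 832 CPM against 1363, 1756 and 1486. It was higher in each line but overlapped between the groups because S34F monosomes were high, and its call was the weakest of the 5 (0.91 ± 0.38, adjusted p = 0.0484).

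The remaining 5 did not pass the test in this comparison. KRT5 held 1358, 4267 and 3032 CPM in monosomes against 2499, 4768 and 4164 in 8-10 ribosomes (0.69 ± 0.33, adjusted p = 0.0872). KRT14 stood at 355, 1052 and 522 CPM against 1109.6, 543 and 942. It was higher in the heavy fraction in WT and FS and lower in S34F (0.83 ± 0.58, adjusted p = 0.227). KRT15 was lower in the heavy fraction in each line, at 14.97, 69.0 and 53.5 CPM against 7.17, 37.2 and 28.9 (-0.80 ± 0.41, adjusted p = 0.108). KRT6A (1.16 ± 1.22, adjusted p = 0.424) and KRT16 (-0.71 ± 1.78, adjusted p = 0.746) had wide errors. KRT6A is under 3 counts in 2 of the 24 libraries and KRT16 in 6. With KRT6A, KRT6B and KRT6C summed, the value was 0.55 ± 0.60 (adjusted p = 0.444).

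The calls of 4 of these 5 genes depend on which lines enter. Without FS or without WT, KRT18 alone was called (adjusted p = 0.0372 and 0.0104 by edgeR), while without S34F the same 5 were called. Without the line block KRT18 and KRT8 were called (adjusted p = 0.0259 and 0.0394), and KRT7, KRT17 and KRT19 had adjusted p of 0.0790, 0.145 and 0.382. Scaling by library totals in place of TMM added KRT5 (0.52 ± 0.21, adjusted p = 0.0430) as higher and KRT15 (-0.93) as lower. KRT15 was lower with DESeq2 (-0.90) and with a fit on these 2 fractions alone (-0.88) as well, and KRT19 lost its call in the latter fit (0.75). KRT14, KRT16 and KRT17 summed with their pseudogenes had 0.98 ± 0.43 (adjusted p = 0.0594), so the KRT17 call was not kept in that sum.

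In 6 and 7 against 2 and 3 ribosomes 1 of 10 keratins was lower (KRT5) and 0 were higher, beside 12.8% lower and 20.8% higher among all genes. KRT5 held 1488, 5358 and 4525 CPM in the fraction of 2 ribosomes and 1399, 4227 and 3120.1 in that of 3 ribosomes, for WT, S34F and FS. It held 1093, 2861 and 1746 CPM at 6 ribosomes and 952, 2865 and 1668 at 7. Within each line both heavier values were below both lighter ones, and the log2 fold change was -0.69 ± 0.24 (adjusted p = 0.0267). The call was lost without FS (-0.50 ± 0.31, adjusted p = 0.240) and without the line block (-0.72 ± 0.46, adjusted p = 0.277). The other 9 keratins ran from -1.31 ± 0.86 (KRT6A, adjusted p = 0.252) to 0.09 ± 0.25 (KRT8, adjusted p = 0.819), and the median of the 10 was -0.215 against -0.04 over all genes. With its copies summed, KRT6A was lower (-1.23 ± 0.43, adjusted p = 0.0276), but the sum still holds the drop at 6 ribosomes of S34F, where it was 114 CPM, the lowest of that gradient.

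In 2 and 3 ribosomes against monosomes 0 of 10 keratins were called, beside 3.14% of all genes in either direction. By edgeR 0 of 10 had an unadjusted p under 0.05, and DESeq2 called 0 of 10. All 10 point estimates were above 0, beside 49.6% of all genes. Their median was 0.47 against -0.01 over all genes, from 0.03 ± 1.40 (KRT16) to 1.27 ± 1.11 (KRT6A). KRT6A was under 3 counts in FS monosomes, and its log2 ratio of CPM was 0.28 in WT and 0.21 in S34F. Some keratins stood below 0 within a line by CPM. KRT14 was at -0.33 in WT and -0.14 in FS, against 0.14 in S34F. The KRT16 value turned to -0.29 with library totals. That scaling lowered the median of all genes from -0.01 to -0.22 here, and the share of all genes above 0 from 49.6% to 34.9%. It lowered the share of calls that were higher from 94.4% to 76.8%.

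**Figure D3:**
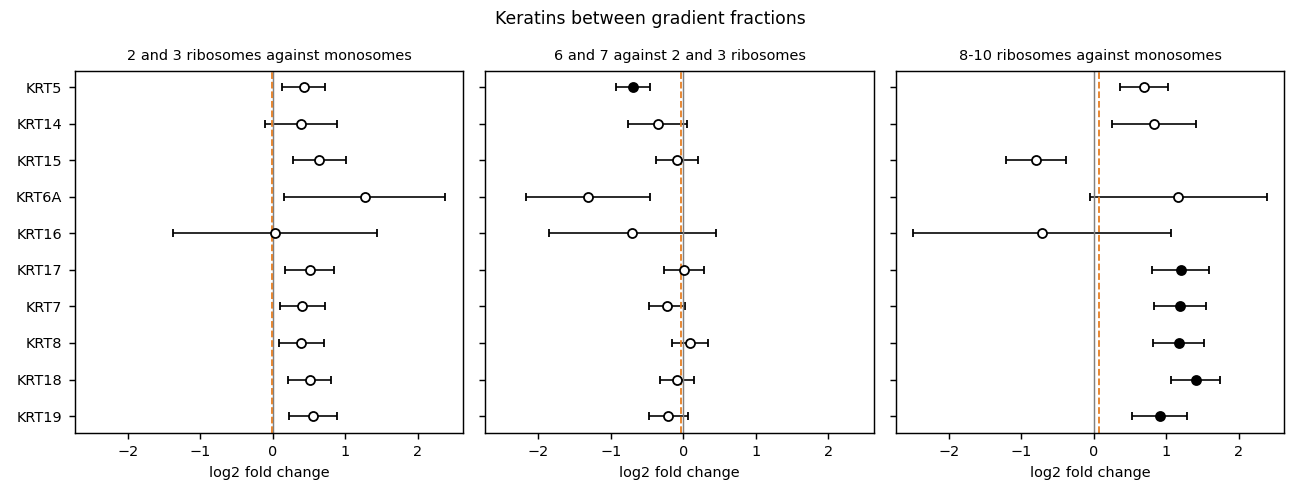
Log2 fold change (points) with its standard error (bars) of each keratin in 3 comparisons of gradient fractions, edgeR fit over 3 lines. Filled points have an adjusted p under 0.05 and the dashed line is the median of all genes tested. KRT7, KRT8, KRT17, KRT18 and KRT19 are filled in the comparison of 8-10 ribosomes with monosomes, and KRT5 in that of 6 and 7 with 2 and 3.

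A ribosome index, the CPM-weighted mean ribosome number over the 8 fractions with 9 for the pooled fraction, summarises each gene's place in a gradient. It is relative, since CPM removes the RNA amount of a fraction. KRT18 had the highest mean index of the 10 (5.16 ± 0.19, SD, n = 3 lines), followed by KRT8 (5.08 ± 0.10), KRT17 (5.02 ± 0.39) and KRT7 (5.01 ± 0.15). KRT19 (4.81 ± 0.32), KRT14 (4.75 ± 0.85), KRT5 (4.59 ± 0.29), KRT6A (4.53 ± 0.31), KRT15 (4.32 ± 0.34) and KRT16 (4.07 ± 1.30) were lower. Neighbours in this order differed by less than the larger of their SDs.

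The spread between lines was widest for KRT16 and KRT14. KRT14 had an index of 5.59 in WT, 3.90 in S34F and 4.77 in FS, which put it above 92.4% of 9501 genes in WT and above 13.0% in S34F. KRT5 had 4.93, 4.42 and 4.43, above 59.8%, 25.2% and 27.2% of genes. KRT17 had 5.43, 4.66 and 4.98, and KRT19 had 5.17, 4.58 and 4.68. KRT8 varied less, with 5.07, 4.98 and 5.18. The median index of the 10 keratins was 5.13 in WT, 4.50 in S34F and 4.76 in FS, while the median of all genes was 4.76, 4.94 and 4.82. The index of all 10 keratins was lower in S34F than in WT, but the share of all genes with this direction was not counted. KRT16 of S34F (2.71) rests on a gradient with 4 fractions listed at 0. KRT6A of S34F (4.18) was listed at 0 at 6 ribosomes. With 1 gradient per line these differences have no test.

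**Figure D4:**
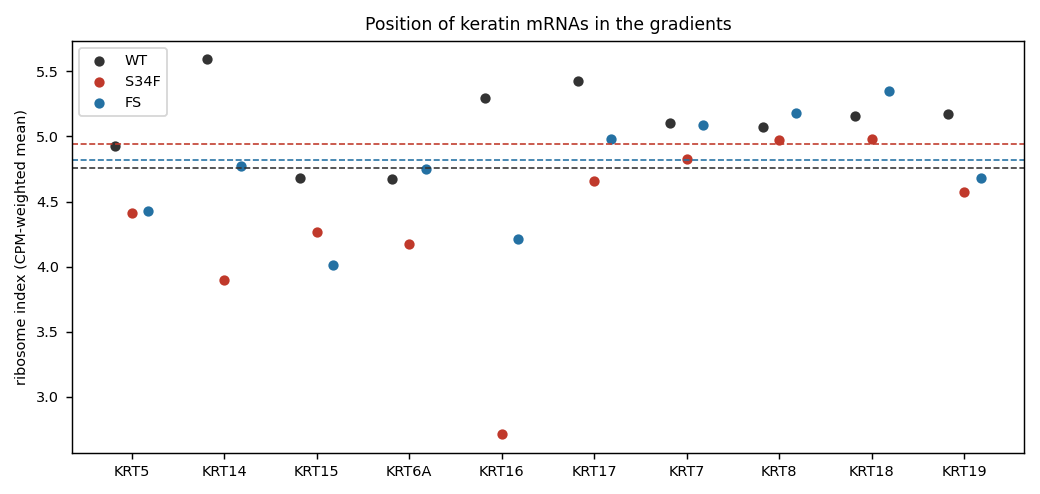
Ribosome index (CPM-weighted mean ribosome number) of each keratin, 1 point per line, with the median of all 9501 genes of each line as a dashed line. S34F points lie below the WT point for every keratin, from KRT8 (4.98 against 5.07) to KRT16 (2.71 against 5.29). The share of all genes with this direction was not counted.

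Members moved together over the gradients to different degrees. The following Pearson correlations of log2(CPM + 1) over the 24 libraries, each line's mean removed, are descriptions, since the points share libraries, depth and composition. KRT7, KRT8, KRT17, KRT18 and KRT19 correlated with each other at 0.796 (KRT18 and KRT19) to 0.929 (KRT7 and KRT18). KRT5 correlated with them at 0.553 (KRT8) to 0.792 (KRT19) and with its own partner KRT14 at 0.471. KRT15 was at -0.417 with KRT18 and -0.227 with KRT5. Among 9486 other genes, those most like KRT8 were TUBB4B, a beta tubulin (0.936), and CTSD, a lysosomal protease (0.925). Those most like KRT18 were TUBB4B (0.952) and the proteasome subunit gene PSMB4 (0.950). KRT5 was most like TGFBI, a secreted matrix protein gene (0.912), and PFKP, a phosphofructokinase gene (0.904), and KRT14 was most like ACSF2 (0.722) and FHL3 (0.705).

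In RIP, 8 of the 10 keratins passed the filter on low counts among 11612 genes tested by edgeR with line as a block. KRT14 and KRT16 did not. The 3 kinds of library were compared in pairs, and since each kind enters 2 of the comparisons these are given side by side. KRT5 was lower in IP than in IgG, KRT19 was detected in IP and IgG but listed at 0 in Cytosol, and KRT17 ran from 11.9 to 19141 CPM.

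In IP against IgG 1 of 8 tested keratins was called, as lower, beside 1.34% of all genes in either direction. KRT5 had IgG levels of 7472 CPM in WT, 23981 in S34F and 8345 in FS, and IP levels of 6819, 13294 and 7229. It was lower in IP in each line, although the ranges of the groups overlap, and the log2 fold change was -0.58 ± 0.12 (adjusted p = 0.0241). In the 3 lines by themselves the log2 ratio was -0.13 in WT, -0.85 in S34F and -0.21 in FS, largest in size in S34F. The call was lost without S34F (-0.41 ± 0.11, adjusted p = 0.0862), without WT (-0.67 ± 0.14, adjusted p = 0.0754), without the line block (-0.69 ± 0.42, adjusted p = 0.552) and with library totals (-0.41 ± 0.13, adjusted p = 0.184). That scaling raised the median of all genes from 0.03 to 0.20 and the share of calls that were higher from 16.7% to 36.4%. The median of the 8 keratins was -0.36.

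KRT5 stood at -0.44 ± 0.12 in IP against Cytosol (adjusted p = 0.190) and 0.14 ± 0.12 in IgG against Cytosol (adjusted p = 0.867). The other chromosome 12 keratins had no call in IP against IgG: KRT18 -0.61 ± 0.17 (adjusted p = 0.101, though DESeq2 called it), KRT6A -0.50 ± 0.15 (adjusted p = 0.147), KRT8 -0.22 ± 0.22 (adjusted p = 0.740) and KRT7 -0.14 ± 0.13 (adjusted p = 0.723). The near copies KRT6B and KRT6C had -0.43 ± 0.16 and -0.35 ± 0.18 (adjusted p = 0.265 and 0.439). With no filter on low counts KRT6A and KRT18 were called lower in IP against IgG, and KRT5 and KRT6A were called in IP against Cytosol. The sum of KRT5, KRT6A, KRT7 and KRT8 stood at -0.50 ± 0.12. This sum was chosen after the values were seen, so it is given as a description, without its p. KRT5 made up much of it: in IgG, 7472 of 13479 CPM in WT, 23981 of 33216 in S34F and 8345 of 13854 in FS. The pseudogene KRT18P55 was lower too (-3.32 ± 0.75, adjusted p = 0.0367), and its reads can come from KRT18.

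In IP against Cytosol 1 of 8 keratins was called, as higher, beside 0.534% of all genes, and in IgG against Cytosol 1 of 8, as higher, beside 0.680%. Both calls were KRT19. No Cytosol library had a count for it, while WT held 1054 CPM in IP and 1457 in IgG, S34F 1494 and 35.4, and FS 979 and 1922. Set against 3 counts per Cytosol library, IP was 3105-fold higher in WT, 6978-fold in S34F and 9719-fold in FS. IgG was 4292-fold, 165-fold and 19070-fold higher. These folds are lower bounds only if the listed 0 is a true count. KRT19 and its pseudogene KRT19P2 together held 4.30 CPM in WT Cytosol, 5.85 in S34F and 2.28 in FS. KRT19 passed the filter on low counts only through the IP and IgG libraries, so its call against a count of 0 is given as a description, without its p. Polysome libraries of the same lines held 546 to 2102 CPM of KRT19. Summed with its pseudogene KRT19P2, which had counts in all 9 libraries, the log2 fold change against Cytosol was 8.16 ± 0.95 in IP and 8.17 ± 1.002 in IgG, still called, with the same limit. Summed with the other 4 chromosome 17 keratins, a sum chosen after the values were seen, the call was lost: 2.18 ± 0.86 in IP (adjusted p = 0.578) and 3.90 ± 0.92 in IgG (adjusted p = 0.0798) against Cytosol. The medians of the 8 keratins were -0.31 and 0.27, against -0.07 and -0.11 over all genes.

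KRT17 had counts in every RIP library, over a wide range. It held 957, 11.9 and 242 CPM in Cytosol, 991, 19141 and 1493 in IgG and 111, 2430.4 and 851 in IP of WT, S34F and FS. S34F IgG was the highest and S34F Cytosol the lowest library, and none of the 3 comparisons was called (IP against IgG -2.30 ± 1.13, adjusted p = 0.412). With no filter on low counts KRT17 was called lower in IP against IgG, and was also called in IgG against Cytosol. KRT15 was at 14.03, 46.7 and 7.76 CPM in IgG and 20.2, 75.3 and 48.3 in IP, higher in IP in each line but without a call (1.43 ± 1.30, adjusted p = 0.712). KRT8 was at 665, 482 and 804 CPM in Cytosol, 340, 495 and 499 in IgG and 508, 294 and 530.1 in IP, and KRT7 at 3519, 2466 and 2917 in Cytosol, 2255, 2281 and 2109 in IgG and 2416, 2019.6 and 2373 in IP. Neither was called in any of the 3.

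**Figure D5:**
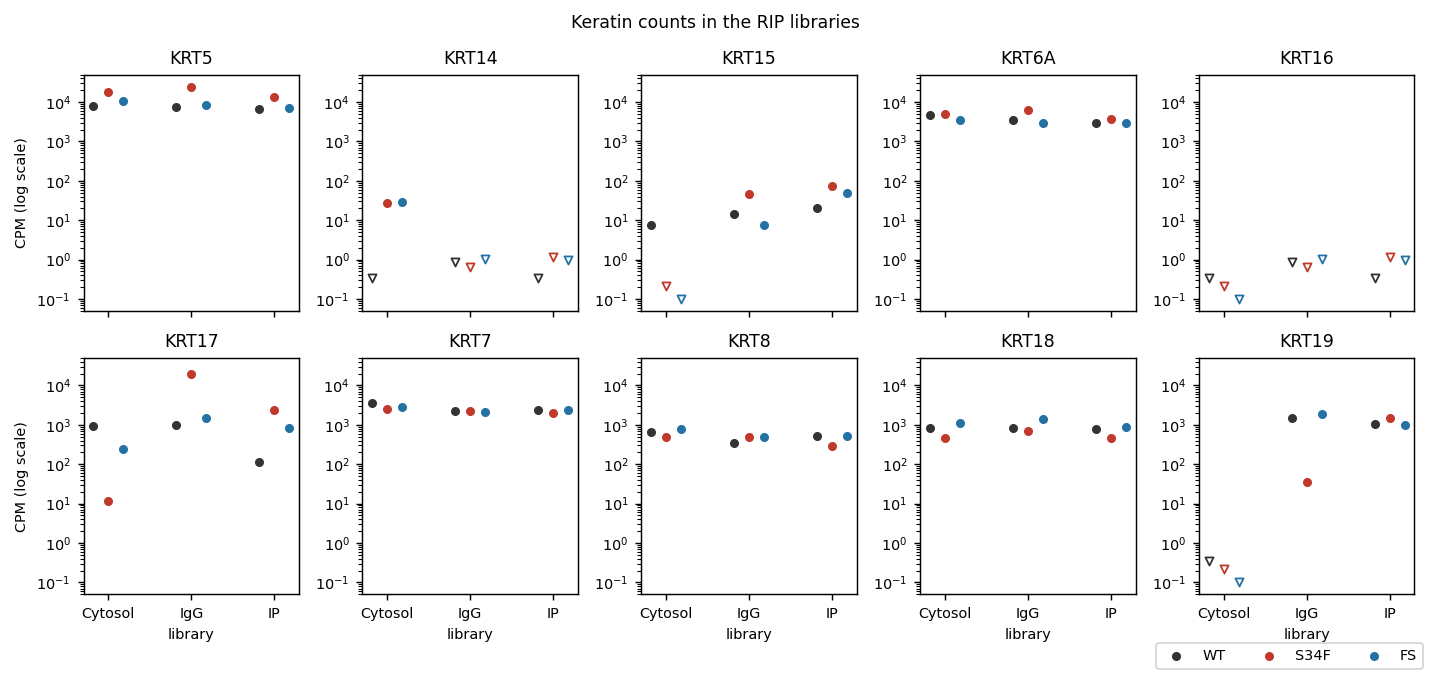
CPM (log axis) of the 10 keratins in the Cytosol, IgG and IP libraries, 1 panel per gene and 1 point per library. Open triangles are libraries under 3 counts, drawn at the CPM of 3 counts. KRT7 stays between 2019.6 and 3519 CPM in all 9, while KRT19 is at the floor in Cytosol and KRT17 runs from 11.9 to 19141 CPM.

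Genes whose proteins anchor or bind keratin filaments were read from 4 lists. The hemidesmosome list, which ties keratins to the basement membrane, had 4 of 6 members lower in IP than in IgG: PLEC, the plectin linker (-1.55 ± 0.13, adjusted p = 3.2e-05), the integrin ITGB4 (-1.50 ± 0.23, adjusted p = 0.00346), the collagen COL17A1 (-1.45 ± 0.19, adjusted p = 0.00110) and the tetraspanin CD151 (-1.21 ± 0.26, adjusted p = 0.0280), beside 1.34% of all genes called in either direction. In IgG against Cytosol 3 of 6 were higher, beside 0.680% called, and in IP against Cytosol 1 of 6 was lower, beside 0.534% (PLEC, -0.71 ± 0.13, adjusted p = 0.0126). Of 4 tested other filament genes LMNA, a nuclear lamin, was lower in IP than in IgG (-0.74 ± 0.16, adjusted p = 0.0324). Of 12 tested desmosome genes 0 were called by edgeR in these comparisons. In IP against IgG, IP against Cytosol and IgG against Cytosol 3, 3 and 1 had an unadjusted p under 0.05 by edgeR. DESeq2 called 1, 0 and 0 of them, beside 636, 142 and 223 of all 11612 genes. Of 13 tested regulators and binders edgeR also called 0. In the same order 2, 3 and 1 had an unadjusted p under 0.05 by edgeR, and DESeq2 called 1, 0 and 0. The share of all genes at that unadjusted p was not counted, so these counts have no background.

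In 8-10 ribosomes against monosomes 5 of 6 hemidesmosome genes were higher, CD151 most (2.22 ± 0.38, adjusted p = 1.0e-04), where 28.3% of all genes were higher and 21.6% lower. Of 14 desmosome genes 8 were higher, among them the linkers PPL (1.82 ± 0.38, adjusted p = 4.6e-04), PKP3 (1.72 ± 0.38, adjusted p = 8.0e-04) and DSP (1.66 ± 0.30, adjusted p = 1.7e-04), and 1 was lower, the cadherin DSC1 (-2.19 ± 0.34, adjusted p = 5.6e-05). Of 14 regulators and binders 10 were higher and 1 lower, FLG, which aggregates keratins in the epidermis (-1.81 ± 0.55, adjusted p = 0.00931). Of 10 other filament genes 3 were higher, among them the lamin gene LMNB2 (2.59 ± 0.32, adjusted p = 7.8e-06), and 3 were lower. The lower ones had wide errors: GFAP (-5.95 ± 1.76), SYNM (-3.03 ± 1.06) and NES (-2.58 ± 1.08). Medians were 1.32 for hemidesmosome genes, 0.81 for desmosome genes, 0.88 for regulators and -1.78 for other filaments, beside 1.04 for the 10 keratins.

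In 6 and 7 against 2 and 3 ribosomes, where 20.8% of all genes were higher and 12.8% lower, 1 of 10 other filament genes was lower and 1 higher. VIM, the vimentin of mesenchymal cells, fell (-1.68 ± 0.23, adjusted p = 1.3e-05), and the lamin LMNB2 rose (1.496 ± 0.22, adjusted p = 2.2e-05). Of 6 hemidesmosome genes 1 was higher, PLEC (1.13 ± 0.26, adjusted p = 0.00176), and of 14 regulators and binders 4 were higher and 1 lower (PNN, -0.76 ± 0.29, adjusted p = 0.0446). Of 14 desmosome genes 2 were higher (EVPL 1.68 ± 0.23, adjusted p = 1.1e-05, and PKP3) and 5 lower, DSG2 (-0.76 ± 0.20, adjusted p = 0.00481) and DSG3 (-0.75 ± 0.21, adjusted p = 0.00848) among them.

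Of 54 other keratin symbols, 27 reached 10 CPM in some library. The near copies KRT6C (median 308 CPM) and KRT6B (median 265 CPM) were the highest in the gradients, and KRT23, a type I keratin, followed at 18.9 to 106 CPM. KRT23 was higher in 8-10 ribosomes than in monosomes (1.46 ± 0.37, adjusted p = 0.00242), as was the type II KRT80 (1.06 ± 0.41, adjusted p = 0.0371). KRT10 was higher in 2 and 3 ribosomes than in monosomes (1.94 ± 0.46, adjusted p = 0.0184), and so was the hair keratin KRT34 (1.52 ± 0.35, adjusted p = 0.0147). KRT3, a type II keratin of the cornea, stood at 4.38 to 31.4 CPM and was lower in 6 and 7 than in 2 and 3 ribosomes (-1.08 ± 0.27, adjusted p = 0.00349). KRT34 (-0.69 ± 0.26, adjusted p = 0.0427) and KRT42P (-1.09 ± 0.37, adjusted p = 0.0245) were lower in that comparison too, beside 12.8% of all genes. The pseudogene KRT42P (-2.09 ± 0.52, adjusted p = 0.00209) and the antisense gene KRT73-AS1 (-2.30 ± 0.44, adjusted p = 2.5e-04) were lower in 8-10 ribosomes than in monosomes. Among all genes 28.3% were higher and 21.6% lower in that comparison, and 3.14% were called in 2 and 3 ribosomes against monosomes.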

How the data were processed

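Values of the polysome and RIP tables are expected counts of gene symbols, as deposited by the authors, since 57.5% and 26.3% are not whole. TopHat is named in the submitters' processing notes, without a version. The counting tool, annotation, use of strand and genome build are not given in the sources used here. For each PAR-CLIP cluster the authors deposited read and conversion counts and, per the file headers, a fraction named for T-to-C conversion.

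Repeated symbols (45 and 119) and 28 names turned into dates were dropped. Counts were rounded and tested with edgeR 4.0.16 (R 4.3.3, limma 3.58.1): TMM, filterByExpr, quasi-likelihood test, line as a block, Benjamini-Hochberg adjusted p under 0.05. Standard errors are the fold change divided by the square root of F. The block follows the shared cell line: deviations of same-line libraries correlated at a median of 0.463 in polysomes (76 of 84 pairs over 0.1) and 0.131 in RIP (5 of 9). DESeq2 1.42.0 was an alternative, and the scripts were tested on simulated data. The 10 keratins and the gene lists were chosen with earlier results of these data known. Text names the 10 genes, their near copies, other keratins at 10 CPM or more, at most 4 called genes per partner list and comparison, and the 2 most alike genes of 4 keratins. Intervals and floors cover counting error only.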

Additional observations from a re-analysis of the deposited data

Results flagged for a closer look

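In 4 comparisons the lines moved in opposite directions, by at least 2 on the log2 scale between lines. Each line has 1 library per kind or fraction, so the difference between lines was not tested, and this spread was chosen after the values were seen.

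KRT17 in IP against Cytosol had a log2 ratio of -3.11 in WT, 7.67 in S34F and 1.82 in FS. KRT19 in IP against IgG had -0.47 in WT, 5.40 in S34F and -0.97 in FS, where S34F IgG held 35.4 CPM and S34F IP 1494 CPM. KRT14 in 8-10 ribosomes against monosomes had 1.65 in WT, -0.95 in S34F and 0.85 in FS. KRT14 in 6 and 7 against 2 and 3 ribosomes had 0.94 in WT, -1.07 in S34F and -0.51 in FS, and WT held 137 CPM at 2 ribosomes and 584 CPM at 3.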

How the results depend on the processing

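Of 554 single-keratin fold changes under alternatives, 491 kept their direction and side of the threshold, 18 lost and 17 gained a call, and 28 turned. A count of 0 allows up to 1.16 CPM in RIP and 1.23 CPM in the gradients. Leaving 1 line out leaves 2 lines. The 2 sums over neighbouring keratins were chosen after seeing the data. Except where a setting drops samples or genes, the cause was not tested.

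Genes called under DESeq2 against edgeR were 1093 against 500 in 2 and 3 ribosomes against monosomes, 636 against 156 in IP against IgG, 142 against 62 in IP against Cytosol and 223 against 79 in IgG against Cytosol. With no filter they were 797, 352, 153 and 197. With no replicate block (no pairing by line) they were 3, 32 and 36 in the first 3 of these, 3154 against 5350 in 6 and 7 against 2 and 3 ribosomes, and 5248 against 7958 in 8-10 ribosomes against monosomes. A fit on only the fractions compared gave 824 in 2 and 3 ribosomes against monosomes, and leaving out genes with isolated zeros gave 248 in IP against IgG. Leaving out 1 line each gave 0 (without FS) to 313 (without WT) in 2 and 3 ribosomes against monosomes, 2385 (without WT) to 4925 in 6 and 7 against 2 and 3 ribosomes, 17 (without WT) to 207 (without S34F) in IP against IgG, with 87 without FS, and 62 to 139 (without S34F) in IgG against Cytosol. The median ribosome index of the keratins was 4.80 with the pooled fraction and 3.90 without it.

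The values that turned were, but for KRT19 without S34F, uncalled ones near 0 or with wide errors. KRT16 in 2 and 3 ribosomes against monosomes was -0.17 with DESeq2, -0.29 with library totals and -0.34 to 0.66 with 1 line out. In 6 and 7 against 2 and 3 ribosomes KRT17 was -0.072 with DESeq2, -0.10 with library totals, -0.038 with no filter, -0.054 with only the fractions compared and -0.31 to 0.25 with 1 line out. There KRT8 was -0.035 with library totals and -0.19 to 0.34 with 1 line out, and others with 1 line out were KRT15 at -0.57 to 0.29, KRT18 at -0.32 to 0.085, KRT19 at -0.47 to 0.080 and KRT7 at -0.48 to 0.011. KRT16 in 8-10 ribosomes against monosomes was -3.06 to 1.27. In IP against IgG KRT19 was -0.010 with copies summed, -0.13 with no replicate block and -0.96 (without S34F, adjusted p = 0.0201 by edgeR) to 2.23 with 1 line out. KRT7 was 0.027 with library totals, and KRT8 was -0.48 to 0.095 with 1 line out. KRT17 in IP against Cytosol was -1.05 to 3.09 with 1 line out. In IgG against Cytosol library totals gave -0.0021 for KRT5 and -0.092 for KRT6A, which was -0.12 to 0.21 with 1 line out.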
